A study of Mus musculus with 22 samples.

Results

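Aldehyde dehydrogenases were followed in FE1 cells, a mouse lung epithelial line derived from the transgenic MutaMouse, that had been exposed to multi-walled carbon nanotubes (Mitsui7) for 24 h. The members were 10 genes chosen by name (Aldh1a1, Aldh1a2, Aldh1a3, Aldh1a7, Aldh1l1, Aldh2, Aldh3a1, Aldh3a2, Aldh3b1 and Aldh7a1) among 20018 genes that the array's probes could be matched to, and they were measured by 12 probes. Untreated cells (0 µg/ml) gave 5 arrays, and Mitsui7 at 12.5, 25 and 100 µg/ml, named the low, medium and high dose, gave 6, 5 and 6 arrays, each from the same line in the same culture medium. On each of the 22 arrays the sample carried the dye Cy5 and Universal Mouse Reference RNA carried Cy3, so every level below is a log2 ratio of sample to that common reference, read for 1 probe and not comparable between probes. FE1 is 1 line grown outside the lung, and the labels do not say which arrays came from separate cultures. The p-values therefore measure the spread between these samples, which may be technical. The study's methods describe fewer separate exposure experiments than replicates per concentration. Arrays of a group may thus share an exposure, whereas the fit counted each array as independent.

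Aldehyde dehydrogenases oxidise aldehydes to acids with NAD or NADP, and each member has its preferred substrates. Aldh1a1, Aldh1a2 and Aldh1a3 make retinoic acid from retinal, and Aldh1a7 is a rodent paralog of Aldh1a1. Aldh2 of mitochondria oxidises acetaldehyde and lipid peroxidation products, the Aldh3 enzymes act on fatty and aromatic aldehydes, Aldh7a1 acts in lysine and choline breakdown, and Aldh1l1 is a folate enzyme of one-carbon metabolism. In lung epithelium several of them take part in clearing aldehydes that arise from inhaled oxidants and from lipid peroxidation.

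The genes of Aldh1a1 and Aldh1a7 lie next to each other on chromosome 19, with 0 annotated genes between them in the table of genes used. Their start regions are shown because these 2 paralogs were among the members that fell. RefSeq windows (build GRCm38.p6) matched 6 of the 10 members by symbol, with 7 windows in all, since Aldh1a1 has 2 starts. The 250 bases upstream of the second Aldh1a1 start (chr19:20601718-20601967, plus strand) and of the Aldh1a7 start (chr19:20727557-20727806, minus strand) are given 5′ to 3′, in capitals where a run of at least 16 bases is found in both.
Aldh1a1: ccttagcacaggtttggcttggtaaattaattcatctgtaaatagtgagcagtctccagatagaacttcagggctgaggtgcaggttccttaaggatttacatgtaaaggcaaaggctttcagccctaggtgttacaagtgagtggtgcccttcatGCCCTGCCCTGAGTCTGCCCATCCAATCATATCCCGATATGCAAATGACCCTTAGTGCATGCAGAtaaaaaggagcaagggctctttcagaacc
Aldh1a7: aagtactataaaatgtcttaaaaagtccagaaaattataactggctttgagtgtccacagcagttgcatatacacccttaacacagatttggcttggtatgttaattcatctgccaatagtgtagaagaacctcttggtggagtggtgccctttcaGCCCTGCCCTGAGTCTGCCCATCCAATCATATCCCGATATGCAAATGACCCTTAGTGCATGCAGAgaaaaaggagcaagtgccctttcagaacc
The capitals form 1 run of 65 bases without a difference, from 94 to 30 bases before each start. The longest run shared by any other pair of the 7 windows was 10 bases. Motifs were searched on both strands after the sequences had been seen. The run holds 1 CCAAT and 1 ATGCAAAT, which do not overlap, and neither GCGTG nor TGACNNNGC. Of the 7 member windows, 5 hold CCAAT, 3 hold ATGCAAAT, 2 hold GCGTG and 1 holds TGACNNNGC. ATGCAAAT is also in the window of Aldh1a2, which was not called. The first Aldh1a1 window and the window of Aldh3b1, which was called lower, hold none of these motifs. Of 32851 windows of 250 bases in the RefSeq table, 33.9% hold CCAAT, 1.6% hold ATGCAAAT, 28.2% hold GCGTG and 10.2% hold TGACNNNGC. The shares are for 250 bases, which is longer than the run of 65 bases. These matches describe the letters only. Probe sequences were not used here, so how far the probes of these 2 paralogs cross-hybridise was not tested.

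The number of probes detected above the negative controls ranged from 21604 to 38146 per array. Of 8 lung epithelial markers, 5 were detected on all 5 control arrays (Krt7, Krt8, Krt18, Tjp1 and Cldn7), whereas Cdh1 was detected on 0 and Epcam on 6 of the 22 arrays. Of 8 alveolar and airway markers, 0 were detected on all control arrays. Of 3 immune markers on the array, 2 were detected on all control arrays (Itgam and Cd3e). The same held for 1 of 3 endothelial markers (Kdr). Detection by this threshold therefore does not by itself mark a cell type. All 5 mesenchymal markers other than Vim (Col1a1, Col3a1, Pdgfra, Pdgfrb and Dcn) were detected on every array and were called lower at the high dose, with log2 changes from -2.27 to -1.34, while Vim was not called (0.14). Of the epithelial markers Krt7 was called lower as well (-0.85), and the other 7 were not called. No marker of the alveolar and airway, immune or endothelial lists (0 of 14 on the array) was called. Their part in the changes of the aldehyde dehydrogenases was not tested, and in a culture fewer cells of a kind and less RNA per cell cannot be told apart. Low dose replicate 1 and medium dose replicate 2 went against their labels. Over 16347 probes, with slide means removed, low dose replicate 1 correlated at -0.42 with the mean of the other low dose arrays and at 0.56 with the medium dose mean. Medium dose replicate 2 correlated at -0.35 with the other medium dose arrays and at 0.17 with the low dose mean. Another 5 arrays also correlated best with a group other than their own, with correlations from -0.03 to 0.43 to their own group. Among them, low dose replicate 5 shared slide 5 with high dose replicate 5 alone. Removing the mean of these 2 arrays made each the opposite of the other. The correlations of low dose replicate 5 thus cannot be read as going against its label. Results that change without low dose replicate 1 and medium dose replicate 2 are given with both values.

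The first question was which members differed from control at each dose. Calls required an adjusted p from limma no higher than 0.05, a difference of 1.5-fold or more, and detection of the gene's brightest probe on 4 or more arrays in one of the compared groups. At the low dose 10 of the 10 members passed detection, and 2 were called lower (Aldh1a7 and Aldh3b1). At the medium dose 9 passed, Aldh1a3 being the exception, and 4 were called lower (Aldh1a7, Aldh1a1, Aldh2 and Aldh3b1). At the high dose 10 passed, and the same 4 genes were called lower. No member (0 of 10) was called higher by limma at any dose. At an unadjusted p under 0.05, 5 members differed at the low dose, 5 at the medium dose and 6 at the high dose, and each of them was lower than in controls. Of all genes that passed, 27.8%, 33.1% and 36.2% had such a p in either direction. Among all genes that passed, 3.09% were called lower and 2.22% higher at the low dose, 4.69% lower and 4.28% higher at the medium dose, and 6.44% lower and 5.47% higher at the high dose. Lower calls were 58.1%, 52.3% and 54.1% of all calls from the low to the high dose, and 84.0%, 62.9% and 68.9% when arrays were centred on their median in place of loess, which also moved the median low dose change of all genes to -0.11. The median log2 change of the 10 members was -0.34, -0.44 and -0.51 from the low to the high dose, beside 0.00055, 0.0015 and 0.010 over all genes that passed. The 3 comparisons share the 5 control arrays, so they are not independent of each other.

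**Figure D1:**
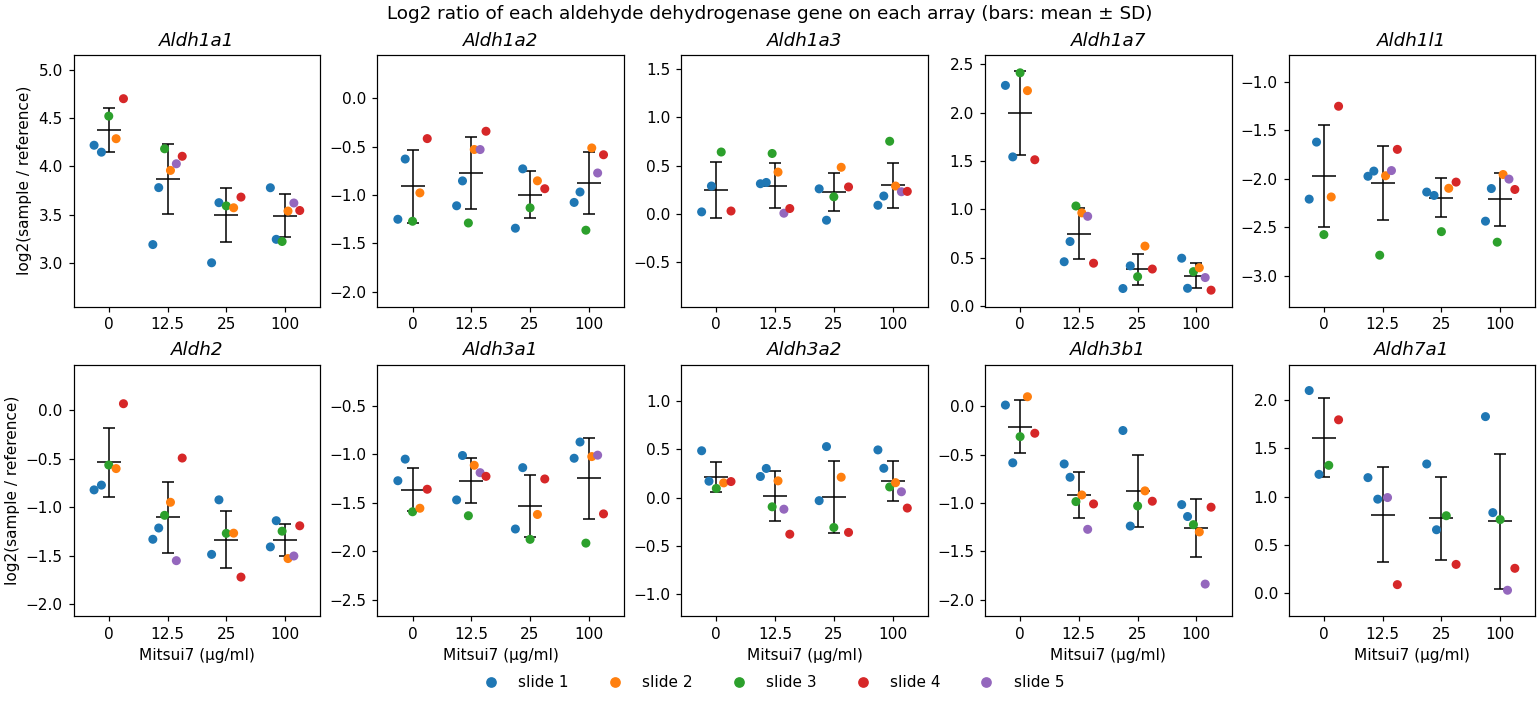
Log2 ratio of sample to reference (y axis, own range in each panel) against Mitsui7 in µg/ml (x axis) for the brightest probe of each of the 10 genes. Points are arrays coloured by slide, and bars are the mean ± SD of a group. Every exposed array of Aldh1a7 lies below every control array, whose lowest value was 1.51, whereas the groups of Aldh1a2 and Aldh1a3 overlap.

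Aldh1a7 changed most of the 10 members at each dose. Its log2 ratios in the control arrays were 2.28, 1.54, 2.41, 2.23 and 1.51. At the low dose they ran from 0.44 through a median of 0.80 to 1.04. At the medium dose they were 0.18, 0.42, 0.31, 0.62 and 0.38, and at the high dose they ran from 0.17 through a median of 0.33 to 0.50. All 6 low dose, all 5 medium dose and all 6 high dose arrays lay below every control array. The mean of the controls was 1.99 ± 0.43 (SD, n = 5). That of the low dose arrays was 0.75 ± 0.26 (SD, n = 6), that of the medium dose arrays 0.38 ± 0.16 (SD, n = 5) and that of the high dose arrays 0.32 ± 0.13 (SD, n = 6). The log2 change was -1.26 ± 0.13 (SE; limma adjusted p = 8.25e-06) at the low dose. It was -1.61 ± 0.14 (SE; limma adjusted p = 3.51e-07) at the medium dose. At the high dose it was -1.70 ± 0.13 (SE; limma adjusted p = 5.68e-08), which is 3.24-fold lower for the ratio of this probe. The probe is dim: its Cy5 signal was 159 to 501 in controls and 92 to 142 at the high dose, where 5 of the 6 spots were marked well above background. High dose signals of the near-background probes of Aldh1a2 (81 to 95) and Aldh1a3 (80 to 111.5) overlapped that range. With background corrected by the normexp method the high dose change was -1.44, and with median centring it was -1.32. The size of the fall in the gene is thus uncertain.

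Aldh1a1, which oxidises retinal and marks stem-like cells in many tissues, was by contrast read from a bright probe, with a Cy5 signal of 13800 to 80310 in controls and no saturated spot. Its log2 ratios in controls were 4.22, 4.15, 4.52, 4.29 and 4.70. At the low dose they ran from 3.19 through a median of 3.99 to 4.18. At the medium dose they were 3.00, 3.62, 3.59, 3.57 and 3.68, and at the high dose they ran from 3.22 through a median of 3.54 to 3.78. All medium and high dose arrays and 5 of the 6 low dose arrays lay below every control. The change was -0.88 ± 0.15 (SE; limma adjusted p = 7.96e-04) at the medium dose and -0.91 ± 0.15 (SE; limma adjusted p = 2.66e-04) at the high dose, the latter 1.88-fold lower. At the low dose it was -0.53 ± 0.15 (SE; limma adjusted p = 0.0497), a 1.44-fold difference and thus under the fold threshold, and it was called when low dose replicate 3 was left out (-0.60, adjusted p = 0.0366). With each array centred on its median in place of loess, the medium dose value was -0.78 (limma adjusted p = 0.212) and not called.

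The other 2 enzymes that make retinoic acid were near background. Aldh1a2, the main embryonic retinal dehydrogenase, was well above background on 1 control array and on 0 exposed arrays. Its log2 ratios ran from -1.27 to -0.42 in controls and from -1.36 to -0.51 at the high dose, where the change was -0.01 with a 95% confidence interval from -0.29 to 0.28. Aldh1a3, which acts in eye and nasal development, was well above background on 1, 2, 1 and 1 arrays of the control, low, medium and high dose groups. Its log2 ratios ran from 0.02 to 0.64 in 4 controls, 1 control spot being missing, and from 0.09 to 0.75 at the high dose. The groups of both genes overlapped. Since these probes lay near background, their fitted log2 changes describe the probes and are not read as fold changes of the genes.

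**Figure D2:**
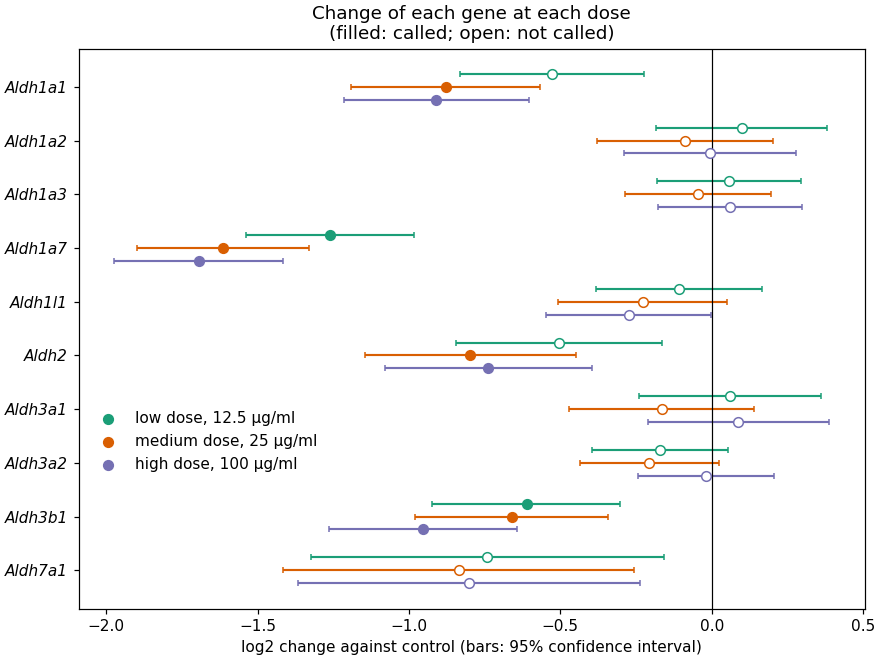
Log2 change against control (x axis) of the 10 genes (y axis) at 3 doses, by limma with slide as a term. Points are estimates, filled where the gene was called, and bars are 95% confidence intervals. Filled points belong to Aldh1a1, Aldh1a7, Aldh2 and Aldh3b1 alone, and all lie below 0.

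Aldh2, the mitochondrial enzyme that clears acetaldehyde and 4-hydroxynonenal, had control log2 ratios of -0.82, -0.77, -0.56, -0.60 and 0.07. The low dose arrays ran from -1.55 through a median of -1.15 to -0.49. The medium dose arrays were at -1.49, -0.92, -1.27, -1.27 and -1.72, and the high dose arrays ran from -1.53 through a median of -1.33 to -1.14. All medium and high dose arrays and 5 of 6 low dose arrays lay below every control. The change was -0.80 ± 0.17 (SE; limma adjusted p = 0.00518) at the medium dose and -0.74 ± 0.16 (SE; limma adjusted p = 0.0052) at the high dose, 1.74-fold and 1.67-fold lower. At the low dose the change was -0.51 ± 0.16 (SE; limma adjusted p = 0.107) and not called. When blocks were the replicate numbers instead of the slides, the low dose change was -0.64 and was called (limma adjusted p = 0.0208). The medium dose call was lost when only the 2 groups entered the fit (-0.80, adjusted p = 0.0536) and with median centring (-0.70, adjusted p = 0.102).

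Among the Aldh3 enzymes, Aldh3b1, which acts on medium and long chain fatty aldehydes, was the member that fell. Its log2 ratios were 0.01, -0.59, -0.31, 0.10 and -0.28 in controls. They ran from -1.27 through a median of -0.95 to -0.60 at the low dose and from -1.84 through a median of -1.18 to -1.02 at the high dose. The medium dose arrays were at -0.25, -1.24, -1.03, -0.88 and -0.98, and medium dose replicate 1 lay inside the range of the controls. All low and high dose arrays and 4 of 5 medium dose arrays lay below every control. The change was -0.61 ± 0.15 (SE; limma adjusted p = 0.0225) at the low dose, -0.66 ± 0.15 (SE; limma adjusted p = 0.0106) at the medium dose and -0.95 ± 0.15 (SE; limma adjusted p = 2e-04) at the high dose, the last 1.94-fold lower. The low and medium dose changes were close to the fold threshold. The low dose call was lost when any of 6 arrays was left out (control replicates 1, 3 and 4, low dose replicates 3, 4 and 6), with values from -0.61 to -0.52 and adjusted p from 0.0553 to 0.102. The medium dose call was lost without control replicate 4 or medium dose replicate 2 (-0.57 and -0.54), and without both arrays that went against their labels (-0.54, adjusted p = 0.0329), in each case by the fold threshold. Median centring ended the call at all 3 doses, with changes of -0.75, -0.58 and -0.97 and adjusted p of 0.329, 0.65 and 0.0722 from the low to the high dose. A fit of only the 2 groups compared ended it at the low (-0.64, adjusted p = 0.0631) and the medium dose (-0.66, adjusted p = 0.0981).

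The other members of that family were not called at any dose. Aldh3a1, known from cornea and as a target of the aryl hydrocarbon receptor, had log2 ratios from -1.59 through -1.36 to -1.05 in controls and from -1.92 through -1.03 to -0.87 at the high dose. Its high dose change was 0.09 (95% confidence interval -0.21 to 0.39) by the brighter of 2 probes and -0.21 (-0.53 to 0.11) by the other, so that the signs differed. Aldh3a2, the fatty aldehyde dehydrogenase of the endoplasmic reticulum, ran from 0.09 through 0.17 to 0.48 in controls and from -0.11 through 0.13 to 0.49 at the high dose. Its high dose change was -0.02 (95% confidence interval -0.24 to 0.20). The intervals of both genes at the high dose leave out a fall as large as that of Aldh3b1.

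Aldh7a1, the antiquitin of lysine breakdown, was lower at each dose by a size like that of the called genes, but did not pass. Its spot was marked and dropped on all 4 arrays of slide 2 and on low dose replicate 3, so the fit used 17 arrays. The log2 ratios in the 4 controls were 2.10, 1.23, 1.32 and 1.79. Those in 4 low dose arrays were 1.20, 0.97, 0.99 and 0.09, and those in 4 medium dose arrays 1.34, 0.66, 0.80 and 0.30. At the high dose 5 arrays gave 1.83, 0.84, 0.76, 0.03 and 0.26. All 4 low dose, 3 of 4 medium dose and 4 of 5 high dose arrays lay below every control, and high dose replicate 1 lay among the controls. The changes were -0.74 ± 0.27 (SE; limma adjusted p = 0.196), -0.84 ± 0.27 (SE; limma adjusted p = 0.102) and -0.80 ± 0.27 (SE; limma adjusted p = 0.0831) from the low to the high dose. With the replicate number as a block, the gene was called at the medium dose (-0.84, limma adjusted p = 0.0114) and at the high dose (-0.72, limma adjusted p = 0.0183). Leaving out control replicate 2 or high dose replicate 1 also gave a call at both doses, at -1.04 each for the high dose and at -1.07 and -0.84 for the medium dose. With the marked spots kept, it was called at the medium dose (-0.86, limma adjusted p = 0.0475). Of 35 other settings run in all, it was not called under 35 at the low, 31 at the medium and 32 at the high dose. A second probe of the gene was detected on 1 of 22 arrays and gives no level.

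Aldh1l1, which makes tetrahydrofolate from its 10-formyl form, had log2 ratios from -2.58 through -2.19 to -1.25 in controls and from -2.65 through -2.11 to -1.96 at the high dose. The groups overlapped. Its change was -0.27 (95% confidence interval -0.55 to -0.002) at the high dose, with an unadjusted p of 0.0489 and a limma adjusted p of 0.277. The probe was dim, with 4 of 6 high dose spots well above background.

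**Figure D3:**
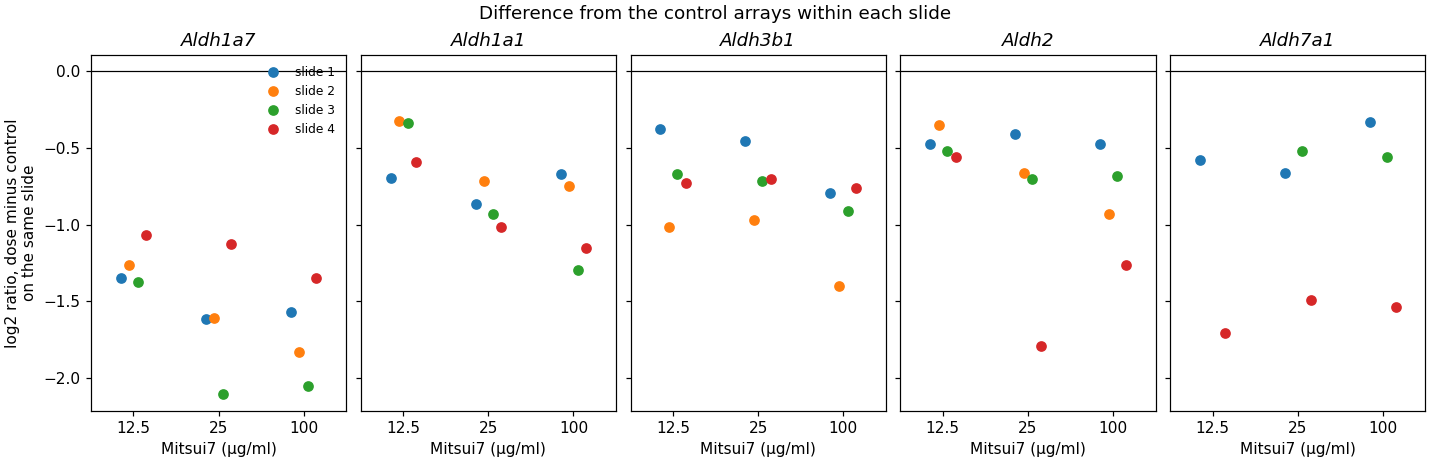
Mean log2 ratio of a dose minus the mean of the controls on the same slide (y axis) against Mitsui7 in µg/ml (x axis) for 5 genes, each point 1 slide. The points of Aldh1a7, Aldh1a1, Aldh3b1 and Aldh2 lie below 0 on 4 of 4 slides at each dose; slide 5 held no control and slide 2 gave no value for Aldh7a1.

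The arrays lay on 5 slides, of which 4 held controls beside each dose. Within slides, Aldh1a7 differed from control by -1.38 to -1.07 at the low dose and by -2.05 to -1.35 at the high dose. Aldh1a1 differed by -0.70 to -0.33 at the low dose and by -1.30 to -0.67 at the high dose. Aldh3b1 differed by -1.02 to -0.38 and by -1.40 to -0.76, and Aldh2 by -0.56 to -0.35 and by -1.26 to -0.48, at the low and high dose. The direction of these 4 genes was thus lower on each of the 4 slides. They were called by a fit of the same arrays with slide as a term, so this is a description and not separate support. For Aldh7a1 the 3 slides with values gave -1.53 to -0.33 at the high dose.

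The next question was whether the members differed between doses. No member was called (0 of 10) between the high and the low dose, where 0.456% of all genes that passed were called. Aldh1a7 differed by -0.43 between the high and the low dose (95% confidence interval -0.69 to -0.17, limma adjusted p = 0.197), and 5 of 6 high dose arrays lay below every low dose array. Its dim probe limits the size of this difference. Aldh1a1 differed by -0.38 (-0.67 to -0.10, limma adjusted p = 0.372), Aldh3b1 by -0.34 (-0.63 to -0.05, limma adjusted p = 0.48) and Aldh2 by -0.23 (-0.55 to 0.09, limma adjusted p = 0.751). In all, 3 members had an unadjusted p under 0.05 in this comparison, 2 between the medium and the low dose and 0 between the high and the medium dose, beside 15%, 8.76% and 5.48% of all genes that passed. The background was 0% of genes called in both of the latter comparisons, so these arrays called no gene there, member or not. The smallest adjusted p of a member was 0.856 between medium and low and 0.999 between high and medium.

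Of the other aldehyde dehydrogenases, 10 of a list of 11 were on the array and 9 passed detection at the high dose. By limma 0 were called higher and 3 lower, beside 6.44% of all genes called lower. Aldh4a1, a mitochondrial enzyme of proline breakdown, changed by -1.004 ± 0.143 (SE; limma adjusted p = 7.61e-05). Aldh6a1, which acts in valine breakdown, changed by -0.94 ± 0.16 (SE; limma adjusted p = 9.94e-04), and Aldh9a1, which acts on aminoaldehydes in carnitine synthesis, by -0.67 ± 0.16 (SE; limma adjusted p = 0.0115). Aldh4a1 and Aldh6a1 were also called lower at the low dose (-0.64 and -0.80), and all 3 were at the medium dose. The median high dose change of the 10 other genes was -0.03.

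**Figure D4:**
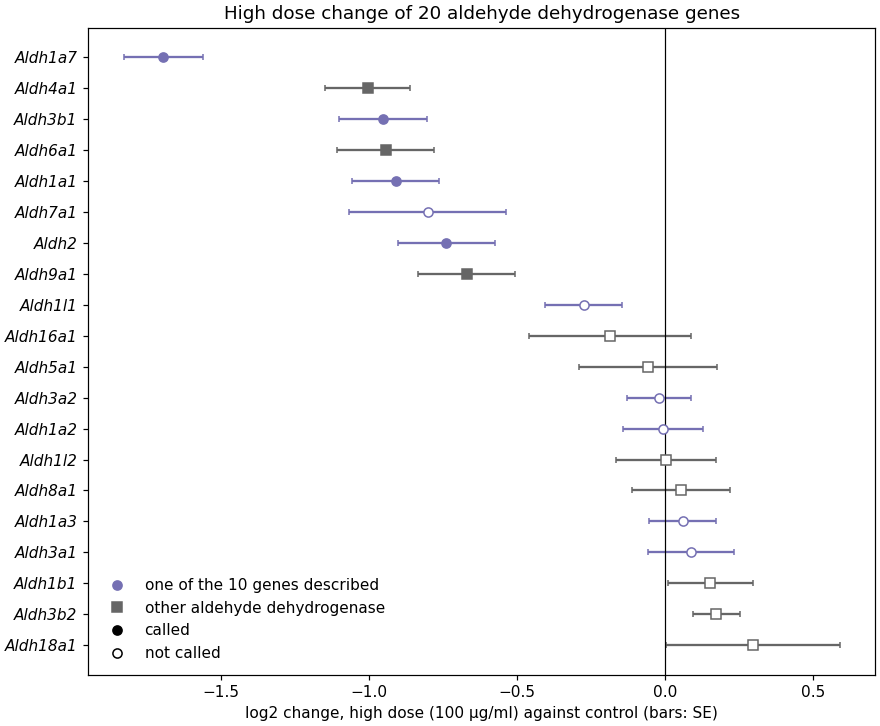
Log2 change at 100 µg/ml against control (x axis) for 20 aldehyde dehydrogenase genes on the array (y axis), with SE bars. Circles are the 10 genes described and squares 10 others, filled where called. The 7 filled points lie below 0, from -1.70 for Aldh1a7 to -0.67 for Aldh9a1.

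Enzymes that clear aldehydes by other routes are given for context. Of 18 such genes 14 passed at the high dose, and 4 were called lower and 1 higher, beside 6.44% and 5.47% of all genes. Aox1, an aldehyde oxidase, changed by -2.08, Gsta4, which conjugates 4-hydroxynonenal to glutathione, by -1.11, Ptgr1, an alkenal reductase, by -0.77, and Akr1b10, an aldo-keto reductase, by -0.73. Esd, the formylglutathione hydrolase, rose by 1.10 on the log2 scale. The alcohol dehydrogenase Adh5, which acts before it on formaldehyde, was not called (0.05). The Adh5 probe did not pass detection at the low dose, so it lay near the detection limit.

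Lists around the substrates and regulators of the members were also counted at the high dose, where 6.44% of all genes that passed were called lower and 5.47% higher. The shares of the 2 lists with 1 call are near this background. Of 15 genes of retinal and retinoic acid turnover 12 passed, 1 was called lower (Dhrs3, a retinal reductase, -1.28) and 0 higher. Among genes known to answer to retinoic acid, Dhrs3 again and the transglutaminase Tgm2 (-0.97) were called lower, and 0 were called higher. In the aryl hydrocarbon receptor battery, 5 of 9 genes passed and 2 were called lower, the receptor Ahr itself (-1.65) and its target Cyp1b1 (-2.54), while Cyp1a1 did not pass detection. Of 13 folate one-carbon enzymes 13 passed and 1 was called lower (Mthfd2l, -0.62). Of 8 genes of lysine and choline breakdown 4 passed and 2 were called lower, Aass, the enzyme at the entry of lysine breakdown (-1.61), and Sardh (-0.77). In the fatty aldehyde and sphingosine phosphate pathway, with 9 of 10 genes on the array and 7 passing, 3 were called higher, the kinases Sphk1 (1.03) and Sphk2 (0.60) and the lyase Sgpl1 (0.72), which yields a fatty aldehyde. The median changes on the array of these 6 lists ran from -0.28 for the genes that answer to retinoic acid to 0.18 for the folate enzymes.

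The genes whose pattern was most like that of Aldh1a7 were sought over the 22 arrays, with slide means removed, among 9900 genes with a value on every array. The highest Pearson correlations were those of Ddc (0.983), Fkbp14 (0.977) and Rab3a (0.975). These arrays share the 4 groups and the same reference RNA, and the correlations are a description. At the high dose Ddc changed by -2.13, Fkbp14 by -2.05 and Rab3a by -1.20.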

How the data were processed

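RNA of FE1 cells was measured on 22 two-colour Agilent mouse arrays of 62976 spots on 5 slides, always with the sample in Cy5 and Universal Mouse Reference RNA in Cy3, so dyes were not swapped. In the deposited scanner files the authors give, per spot, the median intensity over its pixels, not normalised; per the file headers the software was Feature Extraction 10.7.3.1 and the scan had 3 µm pixels, whereas the study's methods name another version and resolution. The deposited series matrix holds the authors' log2 ratios, whose normalization and centring are not stated; its 22 columns each correlated best with their own array (lowest r 0.8395, column medians 0.00433 to 0.0267). The scanner software's own log ratio was not used.

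After removal of 3671 control spots per array and of spots that the scanner marked as non-uniform or as outliers, loess was applied within arrays to log2(Cy5/Cy3) with no background subtracted. Intensity is not a count, so the depth was described by detected probes. Detection required a Cy5 signal more than 3 SDs above the mean of 308 negative control spots (both with 5% trimming). Symbols were matched by accession without version to RefSeq names of GRCm38.p6, for 26413 of 55681 probes, and a gene was given by its brightest probe.

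The model of limma 3.58.1 (R 4.3.3), which stood in for the study's shrinkage test, held group and slide and used the 22 arrays together, with Benjamini-Hochberg adjustment over 55681 probes. The procedure was tested on simulated data. The members, the lists and the alternatives were chosen with earlier results of these data known. Named genes are the members, up to 4 genes called at the high dose per list by size, and the 3 genes most like the called member with the largest decrease. A result that this rule would name is not reported here. The model had no replicate block, which was run as an alternative. All 15 same-number pairs of a dose and a control array deviated together (correlations 0.209 to 0.844), 13 of them on a shared slide. Slide means were not removed here, and pairs of unlike number were not compared. This check therefore cannot show that the numbers pair the samples.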

Additional observations from a re-analysis of the deposited data

Results flagged for a closer look

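In 40 groups of 4 to 6 arrays, 7 held 1 array whose log2 ratio lay apart from the rest by Dixon's test, which chance gives in about 1 in 20 groups. Aldh1a1 was at 3.00 in medium dose replicate 1, against 3.57 to 3.68 in the other 4. Aldh2 was at 0.0692 in control replicate 5, against -0.82 to -0.56 in the other 4. Aldh3b1 was at -1.84 in high dose replicate 5, against -1.30 to -1.02 in the other 5. Aldh3a2 was at 0.48 in control replicate 1, against 0.09 to 0.17 in the other 4. Aldh1l1 was low on slide 3 in 2 groups, at -2.79 in low dose replicate 3 (others -1.97 to -1.70) and at -2.55 in medium dose replicate 3 (others -2.17 to -2.03). Aldh1a3 was at 0.75 in high dose replicate 3, against 0.09 to 0.29 in the other 5.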

How the results depend on the processing

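Aldh1a7 was called lower at all 3 doses under each of 35 other settings, with high dose changes from -1.80 to -1.32. Of these settings, 22 each left out 1 array, and those that only loosened the calling rule could not lose a call. At the high dose Aldh1a1 was called under 34 of 35 settings, Aldh2 under 34 and Aldh3b1 under 33. The 2-fold threshold left 1 member called at each dose. Median centring left 1 at the low, 1 at the medium and 3 at the high dose. A fit of only the 2 groups left 1 at the low and 2 at the medium dose. The low dose count was 1 to 2 when arrays were left out one at a time. With the replicate block the counts were 3, 5 and 5 from the low to the high dose; Aldh2 at the low dose (-0.64) and Aldh7a1 at the medium (-0.84) and high dose (-0.72) were gained, and no other call changed. With marked spots kept, Aldh7a1 was gained at the medium dose, for 5 calls. The changes that turned sign belonged to members not called and lay near 0. Aldh1a2 at the high dose was 0.029 without the slide term, 0.009 with slide as a random block, 0.037 with the series matrix values and 0.008 with only the 2 groups, and -0.092 to 0.095 without single arrays. Median centring turned Aldh1a2 (-0.013) and Aldh3a1 (-0.077) at the low dose and Aldh1a3 at the medium dose (0.024). The series matrix values turned Aldh1a3 (-0.012, 0.012 and -0.024 from the low to the high dose) and Aldh3a2 at the high dose (0.061), and gave 0 for Aldh3a1 at the low dose. Aldh3a2 at the high dose was 0.023 with the replicate block, and Aldh1a3 at the medium dose was 0.005 without the 2 arrays that went against their labels. Without single arrays, Aldh3a2 at the high dose ran from -0.086 to 0.059, Aldh1a2 and Aldh1a3 at the medium dose from -0.188 to 0.012 and from -0.115 to 0.067, and Aldh3a1 and Aldh1l1 at the low dose from -0.018 to 0.142 and from -0.204 to 0.015. The causes were not tested. Between doses 0 members were called under every setting run. Signals near background limit Aldh1a2, Aldh1a3 and Aldh1l1, and missing spots limit Aldh7a1. The dim probe of Aldh1a7 limits the size of its change.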
